A study of Mus musculus with 8 samples.

Results

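The genes described here are 9 genes that mark the mesothelium, the sheet of cells that covers the liver and lines the body cavities: Msln, Muc16, Upk3b, Upk1b, Gpm6a, Lrrn4, Wt1, Bnc1 and Rspo1. They were chosen by symbol among the 32859 genes of the deposited count table, and each symbol matched 1 row. RNA was sequenced from 8 libraries of cells sorted for the red reporter tdT from livers of normal Clec3bCreERT2;R26tdT mice, in which Clec3b, the gene of tetranectin, drives an inducible Cre recombinase. The labels call the sorted cells primary hepatic portal fibroblasts. These cells were transduced with a Klf4-overexpressing lentivirus in 4 libraries (Lenti-Klf4) and with a control virus in the other 4 (Lenti-Ctrl). By the labels, both groups share the mouse strain, the reporter, the sort and a lentiviral transduction. Whether they match in genetic background was not tested. The series asks how Klf4, a zinc finger transcription factor, bears on the passage of these fibroblasts to myofibroblasts. The age of the mice, the time after transduction and the culture conditions are not given in the sources used here.

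Mesothelial cells carry both epithelial and mesenchymal traits: they rest on a basement membrane, have keratins and a coat of membrane mucins, and derive from mesoderm. In the embryonic mouse liver, Wt1-positive mesothelial cells give rise to stellate cells and fibroblasts, and in injured adult liver they can take on a myofibroblast form. Among the 9 genes, Msln (mesothelin) and Muc16 (the CA125 mucin) encode surface proteins that bind each other in human. Upk3b and Upk1b encode uroplakins, Gpm6a and Lrrn4 encode membrane proteins first described in neurons, Wt1 and Bnc1 encode zinc finger proteins of the nucleus, and Rspo1 encodes a secreted enhancer of Wnt signalling.

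Promoters are shown for 4 of the 9 genes, because their RNA differed in direction or size between the groups and KLF4 is known to bind the CACCC box, GGGTG or its reverse complement. RefSeq's table for mouse build GRCm38.p6 held promoters of 6 of the 9 genes, 7 in all because Gpm6a had 2, and none for Msln, Upk1b and Wt1. Each sequence runs 5′ to 3′ on the gene's own strand, from 250 bases before the transcription start to 50 after it, and capitals mark each CACCC box on either strand.
Upk3b promoter, chr5:136038246-136038545, plus strand: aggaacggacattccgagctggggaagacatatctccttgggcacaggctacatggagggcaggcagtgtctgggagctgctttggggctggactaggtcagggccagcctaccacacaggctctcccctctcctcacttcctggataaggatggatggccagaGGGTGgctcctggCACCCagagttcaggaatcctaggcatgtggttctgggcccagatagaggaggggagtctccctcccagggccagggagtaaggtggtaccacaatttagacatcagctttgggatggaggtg
Muc16 promoter, chr9:18674554-18674853, minus strand: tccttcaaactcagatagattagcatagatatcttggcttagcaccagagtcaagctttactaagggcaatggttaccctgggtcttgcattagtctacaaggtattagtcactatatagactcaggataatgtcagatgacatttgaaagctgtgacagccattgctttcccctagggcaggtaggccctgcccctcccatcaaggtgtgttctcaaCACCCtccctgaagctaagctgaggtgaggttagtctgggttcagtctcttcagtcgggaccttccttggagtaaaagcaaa
Bnc1 promoter, chr7:81992250-81992549, minus strand: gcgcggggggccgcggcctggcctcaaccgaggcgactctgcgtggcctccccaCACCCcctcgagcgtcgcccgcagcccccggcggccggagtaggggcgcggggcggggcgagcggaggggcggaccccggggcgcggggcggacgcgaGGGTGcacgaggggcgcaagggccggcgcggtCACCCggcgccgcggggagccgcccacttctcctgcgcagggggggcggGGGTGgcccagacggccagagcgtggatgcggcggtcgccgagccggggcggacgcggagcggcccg
Lrrn4 promoter, chr2:132880813-132881112, minus strand: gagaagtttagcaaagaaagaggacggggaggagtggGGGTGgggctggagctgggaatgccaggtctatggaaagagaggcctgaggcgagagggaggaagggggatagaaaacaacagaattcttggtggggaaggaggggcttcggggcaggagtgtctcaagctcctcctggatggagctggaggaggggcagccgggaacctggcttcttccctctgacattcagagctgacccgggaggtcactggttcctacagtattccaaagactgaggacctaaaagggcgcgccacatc
Muc16 and Upk3b had the largest RNA increases of the 9 genes in Lenti-Klf4, Bnc1 had the smallest, and Lrrn4 was lower. The Upk3b promoter held 2 CACCC boxes, which begin 86 and 73 bases before the start, and the Muc16 promoter held 1, beginning 32 bases before it. The Bnc1 promoter held 4, together with 6 GC boxes (GGGCGG), in a sequence of 83.3% G and C. The Lrrn4 promoter held 1, beginning 213 bases before the start, inside a match to the longer KLF4 motif GGGNGTGG.

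All 7 promoters of these genes held the CACCC box on at least 1 strand, as did 57.5% of the 32851 promoters in the table. The longer motif GGGNGTGG, whose matches can contain the box, was found in 3 of the 7 (Lrrn4, Bnc1 and Rspo1) against 17.6% of all promoters. The TEAD motif GGAATG was found in 3 of 7 against 14.7%, the GC box in 2 of 7 against 35.7%, and the TATA box TATAAA in 1 of 7 against 13.6%. The motif GCGGGGGCG, shared by EGR factors and WT1, was in none of the 7 and in 2.91% of all promoters. All motifs were searched on both strands, and a match describes letters in this window only. The box was present both where RNA was higher (Upk3b, Muc16, Bnc1, Gpm6a, Rspo1) and where it was lower (Lrrn4).

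The libraries held 57306334 to 87361995 counts. Klf4 itself was at 201, 241, 234 and 235 CPM (counts scaled to a common library size) in Lenti-Klf4 replicates 1 to 4, against 86.8, 92.3, 83.0 and 87.1 CPM in Lenti-Ctrl, a log2 fold change of 1.38. Clec3b, the gene behind the sort, was near the detection limit, with 73 counts over the Lenti-Klf4 libraries and 4 over the Lenti-Ctrl libraries. Portal fibroblast markers went both ways: Ly6a was at 32.8 ± 1.49 FPKM in Lenti-Klf4 and 2.2 ± 0.339 FPKM in Lenti-Ctrl, and Eln, the elastin gene, at 1.57 ± 0.201 against 71.0 ± 2.47 FPKM (SD, n = 4 each). Lenti-Klf4 replicate 1 had the lowest Klf4 level of its group and also the lowest level of most of the 9 genes. It was also the deepest library of its group, with 82847723 counts. A link between these traits of 1 library was not tested.

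Of the 9 mesothelial genes, 7 rose and 2 fell in Lenti-Klf4. Msln, Muc16, Upk3b, Upk1b, Gpm6a, Bnc1 and Rspo1 were higher, and Wt1 and Lrrn4 were lower. All 9 passed the filter on low counts, and each passed an adjusted p of 0.05 in edgeR's quasi-likelihood test over 18439 genes. The groups did not overlap for any of the 9. The background was high: 72.2% of all tested genes were called, 37.5% higher and 34.7% lower, and 69.2% had groups that did not overlap. The median log2 fold change was 1.73 over the 9 genes and 0.03 over all tested genes. Scaling by library totals alone gave 8328 genes higher and 5172 lower in place of 6914 and 6393, and moved the median gene by 0.19 on the log2 scale, with 7 of the 9 genes still higher and 2 lower. The labels name no separate mice or cultures for the replicates, so p-values measure only the spread between these libraries. In bulk RNA, more cells of a type and more RNA per cell cannot be told apart.

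**Figure D1:**
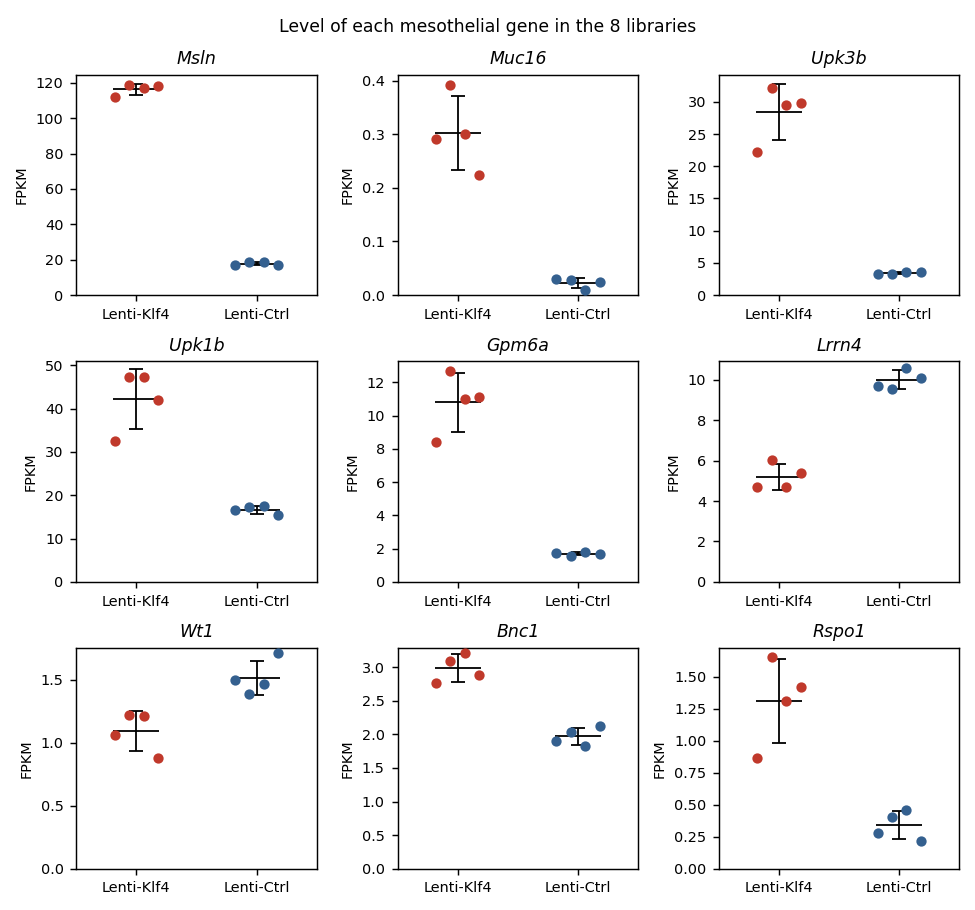
FPKM of each of the 9 mesothelial genes in every library (points, replicates 1 to 4 from left to right), with the mean and SD of each group (lines, n = 4), Lenti-Klf4 at left and Lenti-Ctrl at right, each panel on its own linear axis from 0. The groups do not overlap in any panel; Lrrn4 and Wt1 are the panels in which Lenti-Klf4 lies below Lenti-Ctrl.

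The surface pair Msln and Muc16 both rose. Msln (ENSMUSG00000063011, chromosome 17, 25967587 to 25973351, minus strand, build GRCm39 as for all gene positions below) had 112, 119, 117 and 118 FPKM (fragments scaled by transcript length and library size) in Lenti-Klf4 replicates 1 to 4, against 17.0, 18.8, 18.6 and 16.9 FPKM in Lenti-Ctrl. The libraries of each group lay close together and the groups were far apart. Msln was 5.69-fold higher (log2 fold change 2.51, SE 0.0416, adjusted p = 1.34e-13). It had the smallest coefficient of variation of the 9 genes in Lenti-Klf4, 2.95%, and 5.39% in Lenti-Ctrl.

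Muc16 encodes a very large membrane mucin (ENSMUSG00000109564, chromosome 9, 18406751 to 18585826, minus strand). It had 0.291, 0.392, 0.301 and 0.224 FPKM in Lenti-Klf4, against 0.0296, 0.0283, 0.00948 and 0.0245 FPKM in Lenti-Ctrl. It was the lowest of the 9 genes in both groups, but every Lenti-Klf4 library lay well above every Lenti-Ctrl library. The counts behind these values were 686, 644, 526 and 382 in Lenti-Klf4 and 76, 51, 16 and 41 in Lenti-Ctrl. Its log2 fold change of 3.47 (SE 0.299, 11.1-fold, adjusted p = 3.59e-07) was the largest of the 9 and had the largest SE. Lenti-Ctrl replicate 3 was the low library, and without it the log2 fold change was 3.22. A pseudocount on FPKM shrinks the value for so low a gene, to 1.70 with 0.1 added and 0.35 with 1 added.

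Upk3b and Upk1b, whose products belong to the family that plates the bladder's surface, both rose, Upk3b by more. Upk3b (ENSMUSG00000042985, chromosome 5, 136067350 to 136075341, plus strand) had 22.2, 32.2, 29.5 and 29.9 FPKM in Lenti-Klf4, against 3.33, 3.24, 3.52 and 3.59 FPKM in Lenti-Ctrl. Replicate 1 was the low library of the Lenti-Klf4 group and still lay far above Lenti-Ctrl. The change was 7.24-fold (log2 fold change 2.86, SE 0.0973, adjusted p = 5.58e-11).

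Upk1b, a tetraspanin gene (ENSMUSG00000049436, chromosome 16, 38593546 to 38620690, minus strand), had 32.6, 47.4, 47.2 and 41.9 FPKM in Lenti-Klf4, against 16.6, 17.2, 17.5 and 15.4 FPKM in Lenti-Ctrl. Replicate 1 was again lowest among the Lenti-Klf4 libraries. Upk1b was 2.2-fold higher (log2 fold change 1.14, SE 0.0988, adjusted p = 3.79e-07). The ratio of Upk3b to Upk1b FPKM within a library was 0.682, 0.680, 0.626 and 0.713 in Lenti-Klf4, against 0.200, 0.188, 0.201 and 0.234 in Lenti-Ctrl. The ratio did not overlap between the groups, so the 2 uroplakin genes did not change by the same factor.

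Gpm6a and Lrrn4, the membrane protein genes first known from neurons, went in opposite directions. Gpm6a (ENSMUSG00000031517, chromosome 8, 55407878 to 55513906, plus strand) encodes a proteolipid family glycoprotein and marks liver mesothelium in mouse. It had 8.42, 12.7, 11.0 and 11.1 FPKM in Lenti-Klf4, against 1.72, 1.58, 1.79 and 1.66 FPKM in Lenti-Ctrl. Every Lenti-Klf4 library was several times above Lenti-Ctrl, with replicate 1 the lowest of them. Gpm6a was 5.56-fold higher (log2 fold change 2.47, SE 0.113, adjusted p = 7.89e-10). The table holds 4 predicted genes on its strand within its span, with at most 41 counts over a group, against 9597 and 1557 counts for Gpm6a over the Lenti-Klf4 and Lenti-Ctrl libraries.

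Lrrn4, a leucine-rich repeat membrane protein gene (ENSMUSG00000043110, chromosome 2, 132710225 to 132722811, minus strand), had 4.67, 6.01, 4.68 and 5.36 FPKM in Lenti-Klf4, against 9.71, 9.54, 10.6 and 10.1 FPKM in Lenti-Ctrl. The groups were well apart, with the Lenti-Klf4 libraries the lower. Lrrn4 was 2.21-fold lower (log2 fold change -1.14, SE 0.0793, adjusted p = 4.40e-08), a change of the same size as that of Upk1b with the opposite sign. The ratio of Msln to Lrrn4 FPKM was 22.7 ± 2.24 in Lenti-Klf4 and 1.79 ± 0.121 in Lenti-Ctrl (SD, n = 4 each).

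The nuclear factors Wt1 and Bnc1 changed least and in opposite directions. Wt1, the transcription factor needed for mesothelial and kidney development (ENSMUSG00000016458, chromosome 2, 104956874 to 105003957, plus strand), had 1.06, 1.22, 1.21 and 0.879 FPKM in Lenti-Klf4, against 1.5, 1.39, 1.47 and 1.71 FPKM in Lenti-Ctrl. The highest Lenti-Klf4 library lay just below the lowest Lenti-Ctrl library. Wt1 was 1.59-fold lower (log2 fold change -0.67, SE 0.125, adjusted p = 3.85e-04). With FPKM and 0.1 added, the difference was smaller, -0.45 on the log2 scale (adjusted p = 0.00974), and it was -0.27 with 1 added.

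Bnc1, encoding basonuclin 1, a zinc finger protein of keratinocytes, germ cells and mesothelium (ENSMUSG00000025105, chromosome 7, 81616401 to 81642055, minus strand), had 2.76, 3.09, 3.21 and 2.88 FPKM in Lenti-Klf4, against 1.9, 2.03, 1.83 and 2.12 FPKM in Lenti-Ctrl. The groups did not overlap. Bnc1 was 1.32-fold higher (log2 fold change 0.40, SE 0.0871, adjusted p = 0.00125), the smallest change of the 9. The authors' FPKM are not corrected by the scaling factors of the edgeR test, so ratios of FPKM lie somewhat above these folds. The ratio of Bnc1 to Wt1 FPKM was 2.76 ± 0.345 in Lenti-Klf4 and 1.30 ± 0.103 in Lenti-Ctrl (SD, n = 4 each).

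Rspo1, the secreted member (ENSMUSG00000028871, chromosome 4, 124880223 to 124902892, plus strand), encodes a ligand of the LGR receptors that keeps Frizzled, the Wnt receptor, at the cell surface. It had 0.862, 1.65, 1.31 and 1.42 FPKM in Lenti-Klf4, against 0.278, 0.401, 0.462 and 0.219 FPKM in Lenti-Ctrl. The groups did not overlap, although replicate 1 was low among the Lenti-Klf4 libraries. These values rest on 150, 201, 168 and 179 counts in Lenti-Klf4 and 52, 54, 56 and 27 counts in Lenti-Ctrl, the fewest of the 9 genes in Lenti-Klf4. Rspo1 was 3.31-fold higher (log2 fold change 1.73, SE 0.293, adjusted p = 1.75e-04).

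**Figure D2:**
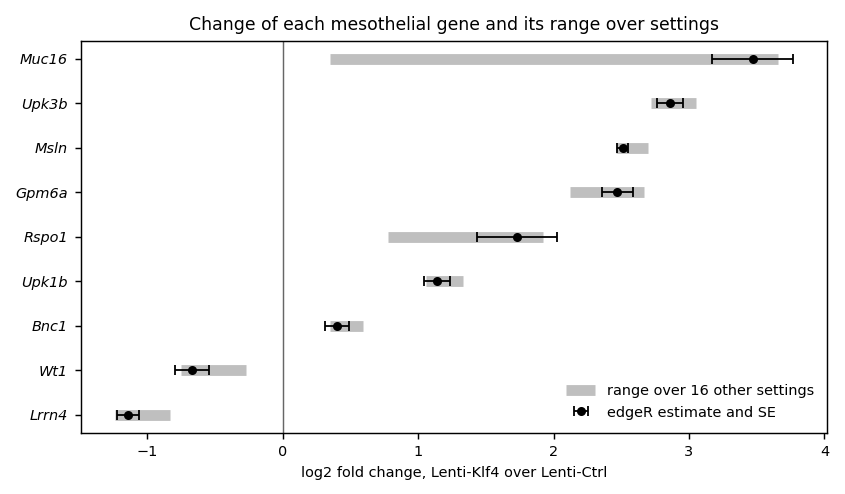
Log2 fold change of each mesothelial gene, Lenti-Klf4 over Lenti-Ctrl, from edgeR with its SE (points and bars), over the range of the same value in 16 other settings (grey bars). No bar crosses 0; the long grey bars of Muc16 and Rspo1 reach down to 0.35 and 0.78, the values from log2 FPKM with 1 added.

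The order of the levels, in FPKM, differed between the groups. In Lenti-Klf4 it ran Msln, Upk1b, Upk3b, Gpm6a, Lrrn4, Bnc1, Rspo1, Wt1 and Muc16, and neighbours in this order were apart in every library except Rspo1 and Wt1. In Lenti-Ctrl it ran Msln, Upk1b, Lrrn4, Upk3b, Bnc1, Gpm6a, Wt1, Rspo1 and Muc16, and the libraries of Msln and Upk1b overlapped, as did those of Gpm6a and Wt1. Msln made up 55.8% of the summed FPKM of the 9 genes in Lenti-Klf4 and 33.4% in Lenti-Ctrl, while Lrrn4 made up 2.48% and 18.7%. The sum over the 9 genes was 185, 224, 216 and 212 FPKM in Lenti-Klf4, against 52.2, 54.2, 55.7 and 51.7 FPKM in Lenti-Ctrl.

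Within Lenti-Klf4, the low and the high library were often the same across the 9 genes. Replicate 1 was the lowest of its group for 6 of the 9 genes (Msln, Upk3b, Upk1b, Gpm6a, Bnc1 and Rspo1), or 66.7%, where 27.3% of all tested genes were lowest in that library. Replicate 2 was the highest for 8 of the 9, where 25.4% of all tested genes were highest in it. In replicate 1, Rspo1 lay 0.53, Upk1b 0.34, and Upk3b and Gpm6a 0.33 below the group mean on the log2 CPM scale, while Wt1 and Muc16 lay within 0.02 of it. Markers of macrophages and leukocytes also summed lowest in replicate 1, at 169 CPM against 235, 235 and 222 CPM in replicates 2 to 4. Endothelial markers did so too, at 110 CPM against 152, 148 and 142. Most other lists described below were likewise lowest there, such as stellate cell markers, at 401 CPM against 483, 470 and 453. The exceptions were WT1 targets and partners (420 against 445, 411 and 422 CPM) and cholangiocyte markers. The latter were highest there, at 759 CPM against 706, 726 and 711. The part of these genes in the result was not tested. Without replicate 1, the log2 fold changes were 2.51 for Msln, 2.94 for Upk3b, 1.23 for Upk1b, 2.56 for Gpm6a and 1.87 for Rspo1, all still called higher.

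**Figure D3:**
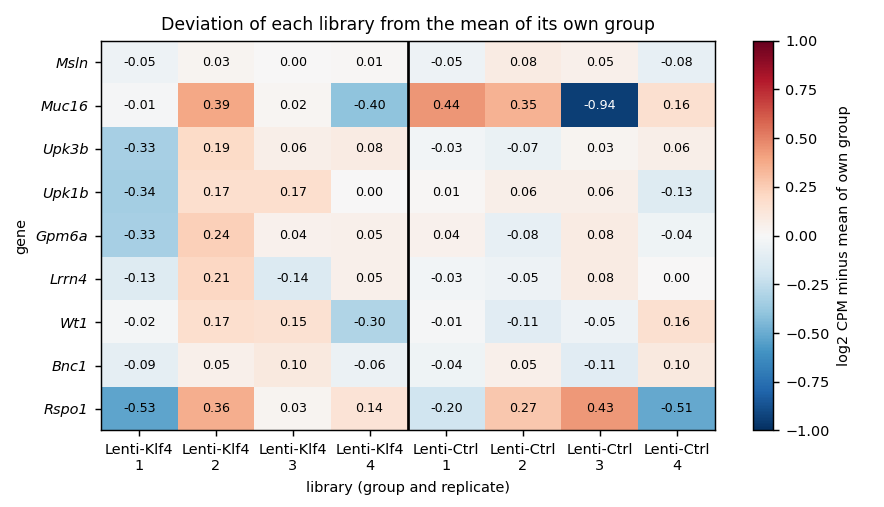
Deviation of each library from the mean of its own group, in log2 CPM, for the 9 mesothelial genes (rows) and the 8 libraries (columns, Lenti-Klf4 left of the line and Lenti-Ctrl right of it). Lenti-Klf4 replicate 1 is blue for Upk3b, Upk1b, Gpm6a and Rspo1 (-0.33, -0.34, -0.33 and -0.53), and the darkest cell is Muc16 in Lenti-Ctrl replicate 3 (-0.94).

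The authors' deposited table of their own DESeq2 comparison listed 7 of the 9 genes and 11361 genes in all, without Muc16 and Rspo1. In the authors' deposited table the log2 fold changes were 2.43 for Msln, 2.78 for Upk3b, 2.39 for Gpm6a, 1.06 for Upk1b, 0.32 for Bnc1, -0.75 for Wt1 and -1.23 for Lrrn4. The header of that table does not give the direction of its fold changes, which was read from Klf4 and Msln as higher in Lenti-Klf4, so the sign of Msln there is no separate observation. The authors' deposited table marked Msln, Upk3b and Gpm6a as Up and the other 4 as Stable, and among its Up and Down genes the smallest absolute log2 fold change was 1.32. The adjusted p-values of the Stable genes in the authors' deposited table were 1.19e-31 for Upk1b, 4.02e-51 for Lrrn4, 6.79e-09 for Wt1 and 0.0013 for Bnc1.

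Other genes known from mesothelium also went both ways. All 26 listed passed the filter: 14 were higher, 9 lower and 3 not called. Over all tested genes, 37.5% were higher and 34.7% lower. The median log2 fold change was 1.13 against 0.03 over all tested genes. Cav1, the caveolae coat gene, was at 105 ± 2.78 FPKM in Lenti-Klf4 and 19.1 ± 0.806 FPKM in Lenti-Ctrl, and Ezr, encoding the microvillus linker ezrin, at 62.8 ± 1.51 against 18.2 ± 1.12 FPKM (SD, n = 4 each). Cldn15, a claudin of tight junctions, rose by the most, at 7.76 ± 0.439 FPKM in Lenti-Klf4 and 0.124 ± 0.0415 FPKM in Lenti-Ctrl, with a log2 fold change of 5.76. Efemp1 (fibulin-3), Igfbp6 (a binder of insulin-like growth factors) and Pkhd1l1 (a large membrane protein) rose with log2 fold changes of 3.07, 3.38 and 3.96. Lenti-Klf4 replicate 1 was the lowest of its group for 18 of the 26 genes and for 10 of the 14 that rose.

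Among the mesothelial genes that fell, Gata4, a transcription factor that restrains liver fibrosis in mouse, was at 5.94 ± 0.972 FPKM in Lenti-Klf4 and 31.2 ± 0.602 FPKM in Lenti-Ctrl, a log2 fold change of -2.59. Tm4sf1, a tetraspanin-like surface gene, was at 14.8 ± 0.324 FPKM in Lenti-Klf4 and 28.7 ± 0.355 FPKM in Lenti-Ctrl, a log2 fold change of -1.16. The 3 that did not pass were Aldh1a1 (log2 fold change -0.05), Nkain4 (0.04) and Cxadr (0.05), and the sign of Aldh1a1 turned when scaled by library totals. The rest of the 26 genes are given beyond the naming rule, with their log2 fold changes. The other genes that rose were the keratin genes Krt8 (2.18), Krt7 (2.11), Krt18 (1.82) and Krt19 (1.18), together with Anxa8 (1.86), Prg4 (1.85), Dpp4 (1.49) and Slpi (1.09). Krt20, a keratin gene outside the 26, fell, with a log2 fold change of -3.39. Krt20 had 36 counts over the Lenti-Klf4 libraries and 315 over the Lenti-Ctrl libraries, so the count filter itself favoured its direction. The other genes that fell included Tcf21, a transcription factor (-3.60), Aldh1a2, a retinoic acid synthase (-2.78), Bcam (-2.13), Podxl, an anti-adhesive sialomucin (-2.07), Gata6, a relative of Gata4 (-0.79), and Pdpn, the podoplanin gene (-0.64). The last of them, Calb2, encoding calretinin, had 4 counts over the Lenti-Klf4 libraries and 260 over the Lenti-Ctrl libraries. It passed the count filter through Lenti-Ctrl, so the filter itself favoured its direction.

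Paralogs of the 9 genes were split. Of 17 relatives listed, 15 were in the table and 12 passed the filter: 3 rose, 6 fell and 3 did not pass. The median log2 fold change was -0.51, where 37.5% of all tested genes rose and 34.7% fell. Beyond the naming rule, those that rose were Mslnl, Muc4 and Rspo2. Muc4 and Rspo2 had counts mainly in Lenti-Klf4, and Lrrn1 and Lrrn2 mainly in Lenti-Ctrl, so the filter itself favoured their directions. Rspo3, the R-spondin gene with the highest FPKM in both groups, was at 3.26 ± 0.412 FPKM in Lenti-Klf4 and 9.36 ± 0.589 FPKM in Lenti-Ctrl. Its log2 fold change was -1.72 (adjusted p = 2.83e-09 in edgeR). The 3 other Lrrn genes fell with Lrrn4, with log2 fold changes of -3.81 for Lrrn1, -4.53 for Lrrn2 and -2.23 for Lrrn3, although none was over 0.485 FPKM on average in either group. Upk1a, the partner of uroplakin 2 in bladder, had a log2 fold change of -0.70 (adjusted p = 0.0792), and the mucin gene Muc1 one of -0.43 (adjusted p = 0.337).

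Rspo1 and Rspo3 changed in opposite directions, which altered the make-up of R-spondin RNA. Rspo1 made up 22.6, 32.5, 28.7 and 27.1% of the summed FPKM of the 4 R-spondin genes in Lenti-Klf4, against 3.12, 4.17, 4.43 and 2.22% in Lenti-Ctrl. The sum itself was 3.81, 5.09, 4.55 and 5.25 FPKM in Lenti-Klf4, against 8.91, 9.62, 10.4 and 9.85 FPKM in Lenti-Ctrl, so the groups did not overlap and Lenti-Klf4 was the lower. Of the R-spondin receptors, Lgr4 rose (4.23 ± 0.348 against 2.21 ± 0.203 FPKM, log2 fold change 0.74) and Lgr6 fell (0.515 ± 0.0586 against 1.66 ± 0.0579 FPKM, log2 fold change -1.89) in Lenti-Klf4 against Lenti-Ctrl. The Wnt receptor ligases Znrf3 and Rnf43, which R-spondins block, had log2 fold changes of -0.02 and -0.12 and did not pass, and both signs turned when scaled by library totals.

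Genes known as Wnt feedback targets were mixed: of 9 tested, 5 were higher, 3 lower and 1 not called. The median log2 fold change was 1.16, where 37.5% of all tested genes were higher and 34.7% lower. Beyond the naming rule, Axin2 and Lef1 rose, with log2 fold changes of 1.16 and 1.62, and Nkd1 and Sp5 fell, with -0.71 and -3.01. Ccnd1, the cyclin D1 gene, was at 108 ± 1.56 FPKM in Lenti-Klf4 and 11.5 ± 0.463 FPKM in Lenti-Ctrl. The Wnt inhibitor gene Apcdd1 rose by 1.23 and Nkd2, another inhibitor, fell by 0.74 on the log2 scale. Notum, a secreted Wnt deacylase gene, had 152 counts over the Lenti-Klf4 libraries and 0 over the Lenti-Ctrl libraries. Sp5 had 18 and 131, so the count filter itself favoured the direction of both genes. Tcf7, a Wnt effector, had a log2 fold change of -0.30 (adjusted p = 0.166).

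Of 11 tested targets and partners of WT1, 1 rose, 8 fell and 2 did not pass, with a median log2 fold change of -1.23, where 34.7% of all tested genes fell. Spry1, an inhibitor of growth factor signalling, was at 9.75 ± 0.351 FPKM in Lenti-Klf4 and 23.2 ± 0.471 FPKM in Lenti-Ctrl. Snai1, a transcription factor of epithelial to mesenchymal transition, was at 22.2 ± 0.278 against 41.7 ± 1.19 FPKM, and Itga4, an integrin subunit also made by leukocytes, at 0.140 ± 0.0422 against 2.71 ± 0.204 FPKM. The WT1 cofactor gene Basp1 and the WT1-associated gene Wtap had log2 fold changes of -0.06 and 0.05 and did not pass, and scaling by library totals gave 0.13 and 0.25, both past the threshold.

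Of 12 genes that mark the passage from mesothelial to mesenchymal form, 2 rose, 8 fell and 2 did not pass. Their median log2 fold change was -0.63, where 37.5% of all tested genes rose and 34.7% fell. The contractile genes Acta2 and Tagln fell with log2 fold changes of -3.32 and -4.32, and Fn1, the fibronectin gene, with -0.98. Snai2, a relative of Snai1, rose, at 34.6 ± 0.955 FPKM in Lenti-Klf4 and 4.66 ± 0.277 FPKM in Lenti-Ctrl. Cdh1 (E-cadherin) stood at 1.13 ± 0.105 against 1.07 ± 0.168 FPKM and did not pass, and Zeb1 had a log2 fold change of -0.07, whose sign turned when scaled by library totals.

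**Figure D4:**
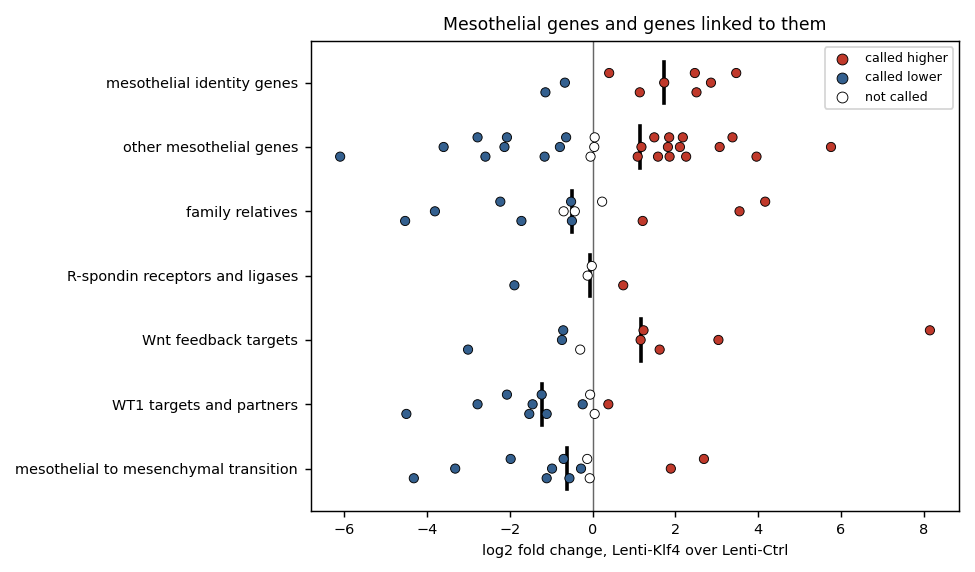
Log2 fold change of each tested gene, Lenti-Klf4 over Lenti-Ctrl, in the 9 mesothelial genes and in 6 further lists (points; red called higher, blue called lower, white not called by edgeR), with the list's median (black line). The 9 genes have a median of 1.73, the 26 other mesothelial genes 1.13 and the WT1 targets and partners -1.23; the point near 8 is Notum, whose fitted value depends on a prior count because Lenti-Ctrl held 0 counts.

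Markers of other cell types moved in the same libraries, where 37.5% of all tested genes were called higher and 34.7% lower. All 13 tested macrophage and leukocyte markers fell. Summed levels over the 14 listed genes were 117 to 165 FPKM in Lenti-Klf4 against 3145 to 3400 FPKM in Lenti-Ctrl. Clec4f and Cx3cr1 were at 0 counts in Lenti-Klf4, against 4106 and 8688 over the Lenti-Ctrl libraries. Both passed the count filter through Lenti-Ctrl alone, so the filter itself fixed their direction. Timd4, not tested, was at 0 counts in Lenti-Klf4 and at 28 over the Lenti-Ctrl libraries. All 11 tested endothelial markers fell (21.9 to 32.2 against 208 to 214 FPKM), and 11 of 12 stellate cell markers fell (91.3 to 116 against 367 to 376 FPKM). The endothelial marker Clec4g, not tested, had 19 counts in Lenti-Ctrl replicate 1 and 0 in every other library. The 17 tested markers of portal fibroblasts were split, with 7 higher, 6 lower and 4 not called (769 to 818 FPKM in Lenti-Klf4 against 1022 to 1077 FPKM in Lenti-Ctrl). The part of these shifts in the levels of the 9 mesothelial genes was not tested.

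Epithelial markers that share genes with mesothelium were mixed, beside 37.5% higher and 34.7% lower over all tested genes. Of 11 tested cholangiocyte markers, which include Krt7 and Krt19, 5 rose, 2 fell and 4 did not pass (383 to 417 against 198 to 209 FPKM in Lenti-Klf4 and Lenti-Ctrl). Epcam, which marks cholangiocytes and not mesothelium, was at 0.443 ± 0.105 FPKM in Lenti-Klf4 and 0.494 ± 0.047 FPKM in Lenti-Ctrl, and Krt23 was at 0 counts in both. Of 8 tested markers of stratified epithelium and urothelium, the tissue that uroplakins are named for, 6 rose, 1 fell and 1 did not pass, with sums of 19.4 to 27.0 FPKM in Lenti-Klf4 against 1.18 to 1.45 FPKM in Lenti-Ctrl. Krt14, a basal keratin, made up most of that sum, at 22.4 ± 3.23 FPKM in Lenti-Klf4 and 0.18 ± 0.0683 FPKM in Lenti-Ctrl. Trp63, Dsg3 and Krt6a had 0 counts in Lenti-Ctrl and 114, 100 and 375 counts over the Lenti-Klf4 libraries. Krt15, not tested, had 0 counts in Lenti-Ctrl and 7 counts in Lenti-Klf4, all in replicate 1. Krt5, Upk2 and Upk3a were also listed, but their symbols matched none of the counted genes. Of the 9 hepatocyte markers in the table, 4 passed the count filter, with counts that lay mainly in Lenti-Klf4. The filter itself thus favoured genes higher there, as it did for the stratified epithelium markers that rose. Krt20, the marker of that list that fell, had counts mainly in Lenti-Ctrl. The 9 hepatocyte markers had sums of 2.83 to 3.54 against 0.0910 to 0.280 FPKM. Ttr, Apoa1 and Cyp2e1, not tested, were at 0 counts in Lenti-Ctrl and at 20, 26 and 4 counts over the Lenti-Klf4 libraries. The part of these markers in the results was not tested either.

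The nearest tested gene on each side of the 9 genes was examined for shifts shared along the chromosome. Of these 18 flanking genes, 11 were higher, 6 lower and 1 not called, and 12 were called in the direction of the mesothelial gene beside them, where 72.2% of all tested genes were called, 37.5% higher and 34.7% lower. Dtx2 and Rasa4, on either side of Upk3b, rose with log2 fold changes of 1.14 and 0.92, against 2.86 for Upk3b. Igsf11 beside Upk1b fell by 1.99 on the log2 scale while Upk1b rose. Beside Lrrn4, Crls1 rose by 0.83 and Fermt1 fell by 2.23. Mslnl, the mesothelin-like gene 283 bases from Msln, had 105 counts over the Lenti-Klf4 libraries and 42 over the Lenti-Ctrl libraries, and rose with a log2 fold change of 1.21 (adjusted p = 0.0442). Wt1os, which lies 19 bases from Wt1 on the opposite strand, had a log2 fold change of 0.11 (adjusted p = 0.825), and no source used here gives the strand setting of the counting, so reads of the pair may not be fully separated.

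The genes whose pattern over the 8 libraries was most like Msln were Cwc22rt5, Cwc22rt7 and Cwc22rt4, with Pearson's r of 0.9999, 0.9996 and 0.9996 on log2 CPM with 0.1 added. These 3 genes are nearly identical in sequence, which leaves the split of reads among them uncertain. They averaged 31.5, 28.8 and 22 CPM in Lenti-Klf4, against 0.0704, 0.0526 and 0.0526 CPM in Lenti-Ctrl. With so little in Lenti-Ctrl they passed the count filter through Lenti-Klf4, so the filter itself favoured their direction. Whether the groups differ in copies of these genes or in genetic background was not tested. The 8 points share the same 2 groups, and 4185 of the 18438 other tested genes, 22.7%, were over 0.95 with Msln. For Wt1, 204 genes, 1.11%, were over 0.95. The genes most like Wt1 were Emc3 (r = 0.9895), Cyp2u1 (0.9874) and Mrpl23 (0.9819), with log2 fold changes of -0.12, -0.85 and -0.41.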

How the data were processed

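The authors deposited 1 table with raw counts per gene and FPKM values for each of the 8 libraries, per the file headers. Counts are whole reads per gene, and the authors' FPKM are scaled by length and library size. A second table of the authors holds their DESeq2 result, with log2 fold changes, p-values and adjusted p-values, per the file headers. Per the labels' protocols, poly(A) RNA was purified and the second cDNA strand was marked with dUTP. Per the submitters' processing notes, the tools were HISAT2 2.2.1, StringTie 2.1.6, cutadapt 1.9 and DESeq2, on build GRCm39. No source used here gives the counting tool or its strand setting.

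The count test was run in edgeR 4.0.16 (R 4.3.3): filterByExpr left 18439 genes, libraries were scaled by TMM, and the quasi-likelihood F test had group as its only term, with Benjamini-Hochberg adjustment over all genes tested and a threshold of 0.05. Depths were 57306334 to 87361995 counts, and 106 gene IDs repeat another's symbol. CPM use library totals times TMM factors. SE is an approximate standard error of the edgeR log2 fold change, its absolute value divided by the square root of the F statistic. Alternatives were other scalings (RLE, library totals), no filter, 1 CPM in 4 libraries, DESeq2 1.42.0, limma 3.58.1 on log2 FPKM with 1 or 0.1 added, a replicate block, and each library left out. In simulated counts (18439 genes, 200 of them changed) the test recovered 50% at 1.5-fold, 68% at 2-fold and 79.5% at 4-fold, with 8, 10 and 10 false calls. In the real libraries 72.2% of tested genes were called, so these rates hold for the simulated setting only.

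The 9 genes and all lists were chosen with earlier results of these data known. Beside the 9, the text names from each list up to 4 called genes by smallest adjusted p, plus up to 2 abundant ones not called (8 and 3 for other mesothelial genes), defining markers, the nearest tested neighbours and the 3 genes most like Msln and Wt1 with a mean of at least 5 CPM. Genes picked otherwise are described as such. Figures were drawn with matplotlib 3.10.9.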

Additional observations from a re-analysis of the deposited data

How the results depend on the processing

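All 9 mesothelial genes kept their direction and their side of the threshold in all 16 other settings, 144 values in all, and 7 were called higher and 2 lower in each. The log2 fold change ranged from 2.46 to 2.70 for Msln, 2.72 to 3.05 for Upk3b, 1.06 to 1.33 for Upk1b, 2.12 to 2.67 for Gpm6a, 0.35 to 3.66 for Muc16, 0.78 to 1.92 for Rspo1, 0.35 to 0.59 for Bnc1, -0.75 to -0.27 for Wt1 and -1.24 to -0.83 for Lrrn4. The lowest values of Muc16 and Rspo1 came from log2 FPKM with 1 added. Deviations from the group mean correlated at 0.0206, 0.0330, 0.00553 and 0.0204 between same-numbered libraries of the groups. Between other pairs they correlated at -0.0325 to 0.0187. Correlations this small cannot show whether the replicate numbers pair the libraries. With a replicate block, 7 of the 9 genes were higher and 2 lower, and over all genes 6730 were higher and 6188 lower. All genes gave 8542 higher and 5268 lower with FPKM and 1 added, and 8563 and 5308 with 0.1 added. The 26 other mesothelial genes gave 14 higher and 9 lower in every setting but the filter of 1 CPM, which gave 8 lower. Over the other genes picked from the lists by the naming rule, 1070 values were unmoved in direction and call. Another 8 kept their sign and newly passed. A further 35 changed sign, all of genes that edgeR with TMM scaling did not call. Of the 35, 6 also passed: Basp1 and Zeb1 with library totals and with both FPKM settings. Library totals gave 0.14 for Aldh1a1, 0.17 for Znrf3, 0.07 for Rnf43, 0.13 for Basp1, 0.13 for Zeb1, 0.07 for Cdh1 and 0.09 for Mgp. Log2 FPKM gave, with 1 and with 0.1 added, 0.13 and 0.14 for Aldh1a1, 0.11 and 0.16 for Znrf3, 0.0078 and 0.07 for Rnf43, 0.14 and 0.14 for Basp1, 0.11 and 0.13 for Zeb1, 0.04 and 0.08 for Cdh1, and 0.07 and 0.07 for Mgp. The filter of 1 CPM gave -0.0024 for Nkain4, and the replicate block 0.03 for Rnf43. With 1 library left out, values ran from -0.10 to 0.02 for Aldh1a1, -0.06 to 0.15 for Nkain4, -0.05 to 0.12 for Cxadr, -0.11 to 0.04 for Znrf3, -0.42 to 0.19 for Rnf43, -0.01 to 0.07 for Wtap and -0.20 to 0.03 for Mgp. The cause was not tested. Depth limits Muc16 and Rspo1 most, with 16 to 76 and 27 to 56 counts per Lenti-Ctrl library.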
